A study of Equus caballus with 3 samples.

Results

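The smooth muscle contractile apparatus was followed through 10 genes in equine mesenchymal stromal cells (MSCs), the plastic-adherent cells that are grown from connective tissues for cell therapy. The genes were *ACTA2*, *ACTG2*, *TAGLN*, *CNN1*, *MYH11*, *DES*, *MYL9*, *TPM1*, *TPM2* and *CALD1*. They were chosen by name as components of the apparatus, with earlier results of these data known. All 10 were found among the 29927 genes of the count tables. The tables place *ACTA2* and *TPM1* on chromosome 1 of the EquCab3.0 assembly, *CALD1* on 4, *DES* on 6, *TAGLN* and *CNN1* on 7, *MYH11* on 13, *ACTG2* on 15, *MYL9* on 22 and *TPM2* on 25. The cells were grown from adipose tissue (AT), marrow of the bone (BM) and circulating blood (PB), all of 1 healthy 10 year old warmblood mare, and had been passaged in culture with no treatment, genetic change or sorting named in the labels. Transcripts were counted in single cells by droplet sequencing of 3′ ends, with 1 library per source, so AT-, BM- and PB-derived MSCs are donor-matched and none is replicated. The source of each library was read from its title, whereas the source name deposited with all 3 gives mononuclear cells of peripheral blood.

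Smooth muscle contracts when myosin filaments pull on actin filaments. The actin filaments carry tropomyosin and are regulated by caldesmon and calponin, and phosphorylation of the myosin light chain switches the motor on. Many of the genes are transcribed by serum response factor together with myocardin or its relatives, and cultured stromal cells express several of them as part of actin stress fibres. The set therefore spans genes that many stromal cells use, such as *TPM1*, *TPM2*, *CALD1* and *MYL9*, and genes tied more closely to differentiated smooth muscle, such as *MYH11*.

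Barcodes with 2500 to 15000 unique molecular identifiers (UMIs, each marking 1 captured transcript) and at most 3% mitochondrial UMIs were kept as cells. This left 5403 AT-, 5580 BM- and 5318 PB-derived MSCs with medians of 7291, 6875 and 7750 UMIs. Levels are CPM, a gene's share of all UMIs of the kept cells of a source scaled to the usual fixed total, and a count of 0 allows a level of up to 3 UMIs, which are 0.0721 to 0.0750 CPM. The leukocyte gene *PTPRC* and the endothelial gene *KDR* were at 0 in every source, and 10 blood and endothelial markers summed to 0.273 to 0.875 CPM. The highest sum was that of AT, most of it *CD34*, with 26 UMIs (0.650 CPM) there and 0 in BM and PB. The tables shared barcodes. All 5318 kept PB barcodes also stood in the AT table, and 5716 of the 6155 AT barcodes under 2500 UMIs stood in another table too, but only 72 to 77 barcodes per source were kept in more than 1 library. Leaving those out moved the AT minus PB difference of *DES* from 7.31 to 7.30 and that of *ACTG2* from 2.99 to 2.97 on the log2 scale. Because so few cells were left out, this could move the values only slightly. It does not address the wider sharing of PB barcodes with the AT table. Leaving out every shared barcode left 0 PB cells, so the effect of that sharing was not tested.

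The first question was how the levels of the genes differed between donor-matched MSCs of the 3 sources. *DES*, *ACTG2*, *CNN1* and *MYH11* differed most, and the other 6 genes, including *ACTA2*, lay within a log2 difference of 1 between any pair of sources. All 10 genes were lowest in PB- or AT-derived MSCs, and none was lowest in BM-derived MSCs. Each value below rests on 1 library, so the 95% intervals cover counting error only, and no test between sources was possible. A difference is log2(CPM + 1) of one source minus that of another.

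Among the genes of the intermediate filament and the thick filament, *DES* stood furthest apart. *DES* encodes desmin, the intermediate filament protein of muscle that links contractile units to each other and to the membrane. Its level was 204 CPM in AT, against 5.04 in BM and 0.288 in PB, from 8154, 203 and 12 UMIs. The AT level was 40.4 times the BM level (95% Poisson interval 35.2 to 46.7) and 707 times the PB level (405 to 1370). The BM level was 17.5 times the PB level (9.80 to 34.4), a ratio that rests on the 12 UMIs of PB.

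*MYH11* encodes the smooth muscle myosin heavy chain, the motor of the thick filament and a marker of differentiated smooth muscle. It was scarce in every source, with 5.78 CPM in AT, 4.03 in BM and 1.03 in PB, from 231, 162 and 43 UMIs. AT exceeded PB 5.59-fold and BM exceeded PB 3.90-fold. The AT to BM ratio was 1.44, with a log2 difference of 0.43 (0.09 to 0.77). The defining myosin of differentiated smooth muscle was therefore found in few cells of any source. *MYL9*, the regulatory light chain that carries the activating phosphorylation, was far from scarce, with 661 CPM in AT, 519 in BM and 355 in PB. It followed the order AT, BM, PB, as *DES*, *ACTG2*, *MYH11* and *TPM2* did.

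Among the thin filament genes, the actins went separate ways. *ACTA2*, smooth muscle α-actin of blood vessels and of myofibroblasts, was 721, 763 and 613 CPM in AT, BM and PB. The AT minus BM difference of -0.08 changed sign to 0.20 with TMM factors, which rescale libraries on the assumption that most genes do not differ, and to 0.07 in cells called G1, so the order of *ACTA2* between AT and BM depends on the setting. *ACTG2*, the γ-actin of gut and other visceral smooth muscle, was 422 CPM in AT, 184 in BM and 52.4 in PB. Its AT level was 2.29 times that of BM and 8.05 times that of PB, and its BM level was 3.51 times that of PB. As log2 differences these were 1.19, 2.99 and 1.79, and in cells called G1 they were 1.80, 3.93 and 2.13. The coding sequences of the muscle actins are nearly identical. How reads that fit more than 1 of them were divided was not tested.

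*CNN1* encodes calponin, which binds actin and restrains the myosin motor. It was highest in BM, with 106 CPM in AT, 162 in BM and 33.1 in PB, so AT exceeded PB 3.20-fold and BM exceeded PB 4.91-fold. *TAGLN*, an actin cross-linking protein of smooth muscle and stress fibres, was 997, 1918 and 1637 CPM. The BM minus PB difference of 0.23 became -0.01 with TMM factors, whereas AT was lowest in either case. *CALD1*, caldesmon, was likewise lowest in AT, with 1062, 1784 and 1411 CPM. *TAGLN* and *CALD1* were the only members below PB in AT-derived MSCs, with AT minus PB differences of -0.71 and -0.41.

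The tropomyosins, which lie along actin and gate the access of myosin, came next. *TPM1* was 2256 CPM in AT, 2797 in BM and 1665 in PB, and *TPM2* was 1007, 882 and 716 CPM. Both were lowest in PB. The BM minus PB difference of *TPM1*, 0.75, was the widest of either gene.

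**Figure D1:**
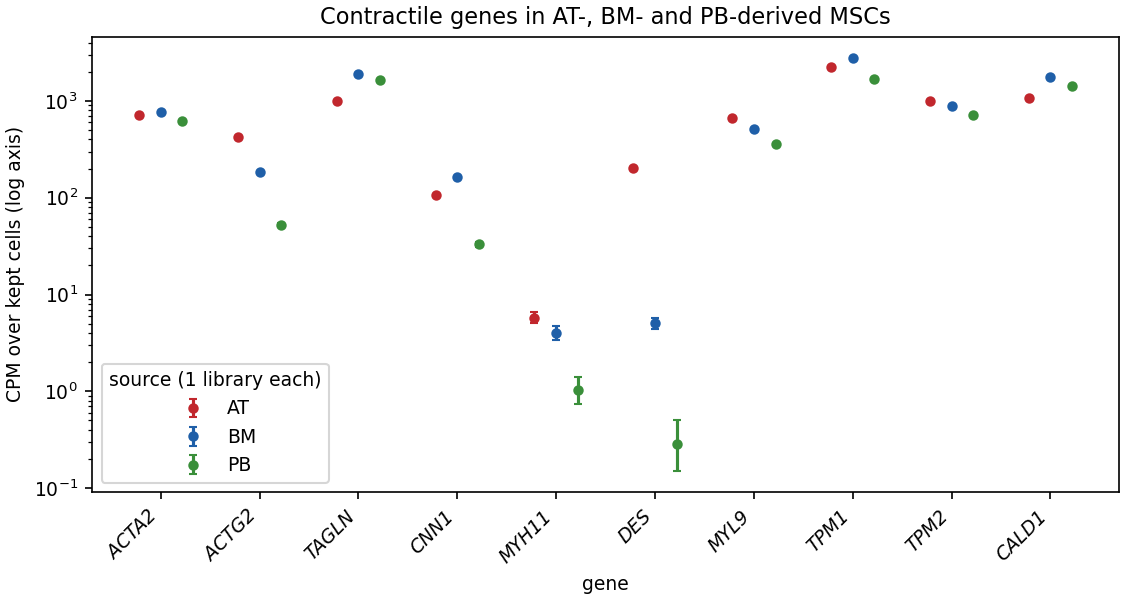
CPM of each gene over the kept cells of AT-, BM- and PB-derived MSCs on a log axis, with 1 library per source and bars for exact 95% Poisson intervals, which are narrower than most points. *DES* runs from 204 CPM in AT to 0.288 in PB, while *ACTA2* stays between 613 and 763 CPM.

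Counted over the set, 2 of 10 members were past a log2 difference of 1 in AT over BM (*ACTG2* and *DES*), where 2.03% of the 6550 genes with a mean of at least 10 CPM were past it. None was past it in BM over AT, where 7.19% of genes were. In AT over PB, 4 of 10 members were past 1 (*ACTG2*, *CNN1*, *MYH11* and *DES*), against 3.18% of genes, and in PB over AT 0 of 10, against 5.01%. In BM over PB the same 4 members were past 1, against 4.87%, and in PB over BM 0 of 10, against 1.73%. With a pseudocount of 25 CPM in place of 1, *MYH11* was no longer past it in AT over PB (0.24), nor *MYH11* (0.16) or *DES* (0.25) in BM over PB, which left 3 and 2 members. *MYH11* did not reach a mean of 10 CPM, so 9 of the 10 members belong to the 6550 genes. Because the members were chosen with earlier results of these data known, the counts describe them and test nothing. With TMM factors the shares of genes became 3.47% and 4.81% for AT and BM, 3.36% and 4.75% for AT and PB and 3.27% and 2.90% for BM and PB, each in the same order.

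By sign alone, 5 members were higher in AT and 5 in BM, 8 were higher in AT than in PB, and all 10 were higher in BM than in PB. With TMM factors *ACTA2* became 0.20 in AT minus BM and *TAGLN* -0.01 in BM minus PB. Over the 6550 genes, the 25th and 75th percentiles were -0.51 and 0.04 for AT minus BM and -0.27 and 0.20 for AT minus PB. For BM minus PB they were -0.05 and 0.43, so most of these genes were also higher in BM than in PB. The median difference of the 10 members was 0.06 for AT minus BM, 0.69 for AT minus PB and 0.65 for BM minus PB. Over all 16457 genes with a UMI in at least 3 kept cells the medians were -0.14, -0.02 and 0.13. Among genes with a mean of at least 10 CPM, the 9 members had medians of -0.08, 0.49 and 0.54, beside -0.22, -0.03 and 0.19 over 6550 genes, so the AT minus BM median of the members changed sign with this filter. TMM moved the median of the 6550 genes by 0.27 for AT minus BM and by -0.23 for BM minus PB.

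The share of cells with a UMI separated the sources for the same genes, and it also showed where a level was carried by few or many cells. Because a share depends on depth, each cell was also thinned at random to 2500 UMIs. At full depth *DES* had a UMI in 40.3%, 1.86% and 0.226% of the cells of AT, BM and PB, and at 2500 UMIs in 23.6%, 0.860% and 0.0188%. The last is 1 cell of 5318. *ACTG2* was found in 51.7%, 29.5% and 12.7% of cells at full depth and in 34.5%, 18.2% and 6.04% after thinning. *CNN1* was found in 35.4%, 48.4% and 18.3% at full depth and in 18.7%, 26.0% and 6.66% after thinning. *MYH11* never exceeded 3.83% of cells.

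*TAGLN*, *ACTA2*, *CALD1* and, by a narrower margin, *TPM1* were found in a smaller share of AT- than of BM- or PB-derived MSCs. For *TAGLN* the shares at 2500 UMIs were 73.8% in AT, 91.0% in BM and 90.6% in PB, and for *CALD1* 85.6%, 96.5% and 94.7%. *ACTA2* was found at 2500 UMIs in 53.5% of AT cells, but in 60.9% of those of BM and 59.8% of those of PB. Its level in AT lay above that of PB, so share and level differ in order, and no order is read from the share. *TPM1* (92.7%, 97.8% and 94.9%), *TPM2* (81.5%, 81.1% and 75.9%) and *MYL9* (62.9%, 63.4% and 52.8%) were found in most cells of each source. RNA that leaks between droplets can also give UMIs. Its share was not measured, because no cells without contractile genes are labelled in the libraries.

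**Figure D2:**
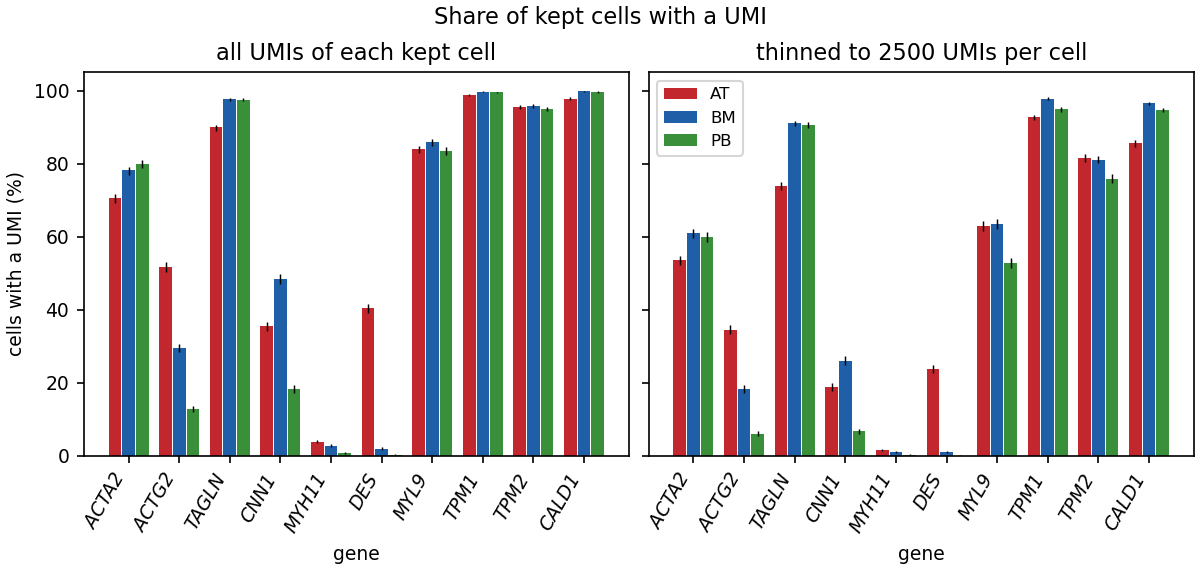
Percent of kept cells with at least 1 UMI of each gene in AT-, BM- and PB-derived MSCs, at full depth (left) and after thinning each cell to 2500 UMIs (right), with exact 95% binomial intervals as bars. *DES* and *ACTG2* are found in the most cells in AT, *CNN1* in BM, and *MYH11* in no more than 3.83% of cells.

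The next question was how evenly the genes were spread over the cells of a source. In AT-derived MSCs the summed level of the 10 genes in single cells ran from 1595 CPM at the 5th percentile through 5050 at the median to 20041 at the 95th, a 12.6-fold span. The span was 5.55-fold in BM (3217, 7763 and 17862 CPM) and 4.65-fold in PB (2587, 5758 and 12042 CPM). The lower end of AT therefore lay below that of BM and PB, and its upper end above both. After thinning, 14.3% of AT-derived MSCs held UMIs of 8 or more of the 10 genes, against 5.22% in BM and 0.658% in PB. *DES* and *MYH11*, which few BM and PB cells held, count among the 10, so these shares partly restate the levels. The median cell held UMIs of 5 of the genes in each source. Cells with 4 or fewer made up 35.6% in AT, 26.4% in BM and 37.5% in PB. These cells differed in depth before thinning, and deeper cells held more of the members' CPM.

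Unevenness beyond counting was measured as the excess squared coefficient of variation, (variance − mean)/mean², of the thinned UMIs, which is 0 for a gene at one level in all cells. It was set beside all genes found in at least 25% of the cells of the source. In AT all 9 members in that range lay above the median of 2642 genes (0.112), and 8 of them lay above the 95th percentile (0.550). In BM 8 of 8 lay above the median and 3 above the 95th percentile, and in PB 6 of 6 and 1. The counts cover different members, because the range left out *DES* and *MYH11* in BM and also *ACTG2* and *CNN1* in PB. In PB the values of *ACTG2* (18.6) and *CNN1* (1.23), though not ranked, were larger than the 95th percentile of 0.588. No order of the sources is therefore read from these counts. *ACTA2* was past the 95th percentile in every source, with 2.24, 1.39 and 1.0 in AT, BM and PB.

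*DES* and *ACTG2* were the most uneven of the members in that range in AT. *DES* reached 5.79 in AT, where the 10% of cells with most *DES* held 71.9% of its UMIs. *ACTG2* reached 4.88 in AT, 7.22 in BM and 18.6 in PB, and the 10% of cells with most *ACTG2* held 64.3% of its UMIs in AT and 79.2% in BM. *ACTG2* in PB, found in 12.7% of cells, lay outside the 25% range and has no rank among the background genes. The same holds for *DES* in BM, which reached 88.9 on 60 thinned UMIs. *ACTG2* was thus less abundant and more unevenly spread in BM and PB than in AT. *CALD1* was the most even member that was found in at least 25% of the cells, with 0.390, 0.174 and 0.126.

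Correlations across cells showed which of the genes were high in the same cells. They are Pearson's r of log(CPM + 1) and are given as descriptions, because cells of a library share its preparation and differ in depth. Over the 45 pairs of members, the median r was 0.307 across 5403 cells of AT, 0.173 across 5580 of BM and 0.126 across 5318 of PB. The members that were scarce in a source have little room to correlate. Among pairs of members found in at least 25% of cells, the median was 0.334 over 36 pairs in AT, 0.246 over 28 in BM and 0.216 over 15 in PB. Over all pairs of genes found in at least 25% of cells, the medians were 0.0344, 0.0292 and 0.0342 and the 95th percentiles 0.0809, 0.0915 and 0.0855. All 36 member pairs in AT, 24 of 28 in BM and 15 of 15 in PB lay above that percentile. After thinning the member medians were 0.237, 0.134 and 0.112, and those of all pairs 0.00138, 0.000859 and 0.000945.

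*ACTA2* and *TAGLN* formed the closest pair in each source, with r of 0.477 in AT, 0.493 in BM and 0.460 in PB. In AT the pair *ACTA2* and *TPM1* was as close at full depth (0.477). After thinning it was 0.348, against 0.401 for *ACTA2* and *TAGLN*. At full depth *ACTG2* was closest to *CNN1* in each source, with r of 0.368 in AT, 0.304 in BM and 0.234 in PB. After thinning this held only in BM (0.191). *ACTA2* was then closest to *ACTG2* in AT (0.295 against 0.270 for *CNN1*) and in PB (0.145 against 0.118). The r of *ACTG2* with *TAGLN* at full depth was 0.319, 0.0625 and 0.171, and with *CALD1* 0.293, 0.0571 and 0.00667. With all cells of BM pooled, *ACTG2* therefore went with calponin and hardly with caldesmon or transgelin, while *ACTA2* went with all of these. In BM *ACTG2* and *CNN1* were also higher in cells called S and G2M than in G1, as given below. There *TAGLN* (-0.22 in S and -0.68 in G2M on the log2 scale) and *CALD1* (-0.21 and -0.58) were lower. The r of single pairs within a phase is not given, and the part of phase in this pattern was not tested. *DES* in AT had a median r of 0.258 to the other members, and its highest at full depth was 0.335 with *CNN1*. After thinning its highest was 0.263 with *ACTG2*, followed by 0.242 with *MYL9* and 0.231 with *CNN1*. *MYH11* had medians of 0.0894, 0.0818 and 0.0296, at a level that gave 3.83% of cells or fewer a UMI.

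**Figure D3:**
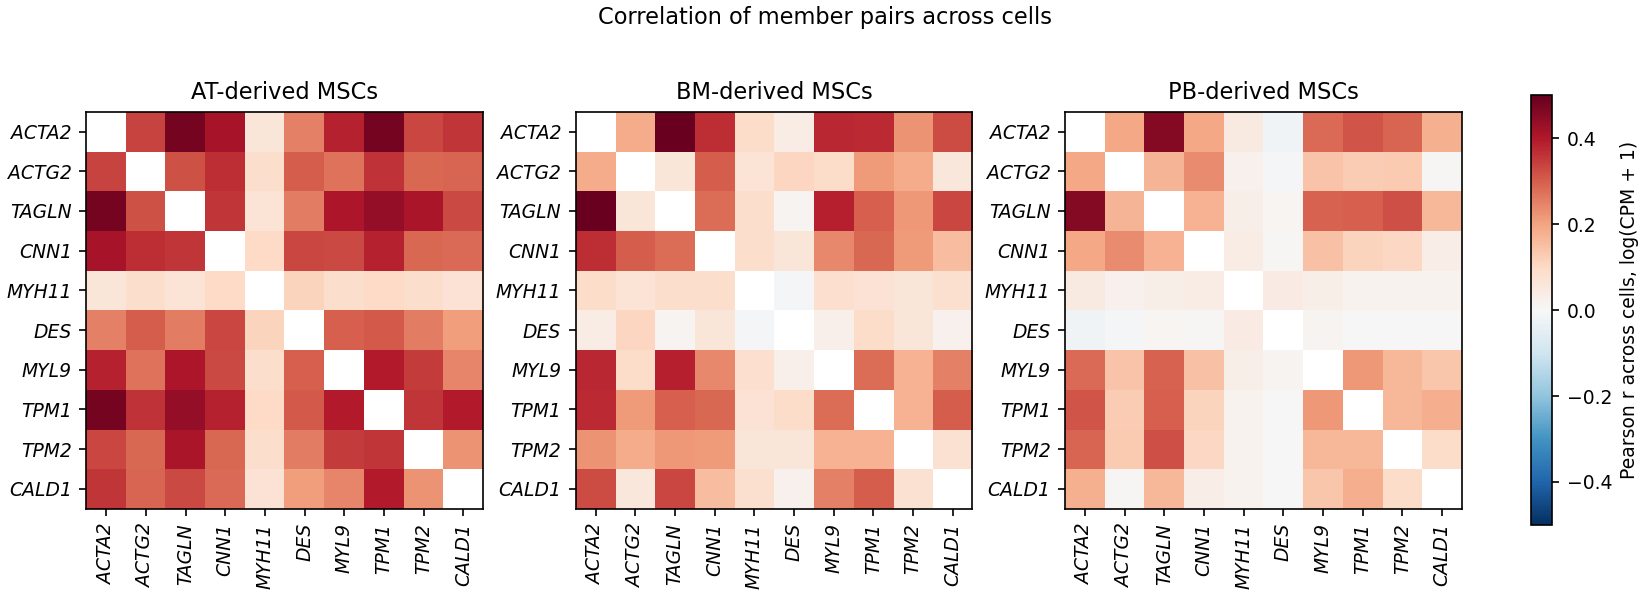
Pearson's r of log(CPM + 1) across cells for the 45 pairs of members, with a panel for each source, in colour from -0.5 (blue) to 0.5 (red), with the diagonal blank. The median r is 0.307 in AT, 0.173 in BM and 0.126 in PB, and *ACTA2* with *TAGLN* is the darkest pair of each source.

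To see the size of this shared variation, cells were ordered for each member by the summed CPM of the other 9 and divided into 10 groups of equal size, called deciles. In AT all 10 members were at least 2-fold higher in the highest than in the lowest decile. *ACTA2* went from 65.8 to 2716 CPM (41.3-fold) and *CNN1* from 9.71 to 413 CPM (42.5-fold). *DES* went from 36.3 to 837 CPM (23.0-fold) and *ACTG2* from 77.3 to 1693 CPM (21.9-fold). *CALD1* moved least, from 543 to 2234 CPM (4.12-fold). The lowest AT decile still held *DES* at 36.3 CPM, above the 5.04 CPM of BM as a whole.

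In BM all 10 members were again at least 2-fold higher, with *ACTA2* 25.2-fold and *CNN1* 11.7-fold. The folds of *MYH11* (41.4) and *DES* (29.1) there rest on 1 and 3 UMIs in the lowest decile. *ACTG2* was 155 CPM in the lowest and 506 in the highest decile (3.27-fold), and its lowest level, 107 CPM, was in the second. In PB 8 of 10 were at least 2-fold higher, among them *MYH11* with 1 UMI in the lowest decile. *ACTG2* went from 6.0 to 151 CPM (25.2-fold) and *ACTA2* from 126 to 1683 CPM (13.4-fold), whereas *CALD1* differed 1.80-fold and *DES* had 1 UMI in either decile. Of the non-members with at least 10 CPM, 2.86% in AT, 2.26% in BM and 2.51% in PB were more than 2-fold higher between the extreme deciles of the sum over all 10 members.

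Depth and cell cycle moved along the same order. The median depth was 6542 UMIs in the lowest and 8064 in the highest AT decile, 5958 and 7766 in BM, and 6887 and 8564 in PB. Cells called S or G2M made up 40.7% of the lowest and 21.9% of the highest decile in AT and 31.2% and 21.3% in BM, but 20.3% and 26.4% in PB. When each cell was thinned to 2500 UMIs, and when only cells called G1 were used, the counts of members at least 2-fold higher were again 10, 10 and 8.

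**Figure D4:**
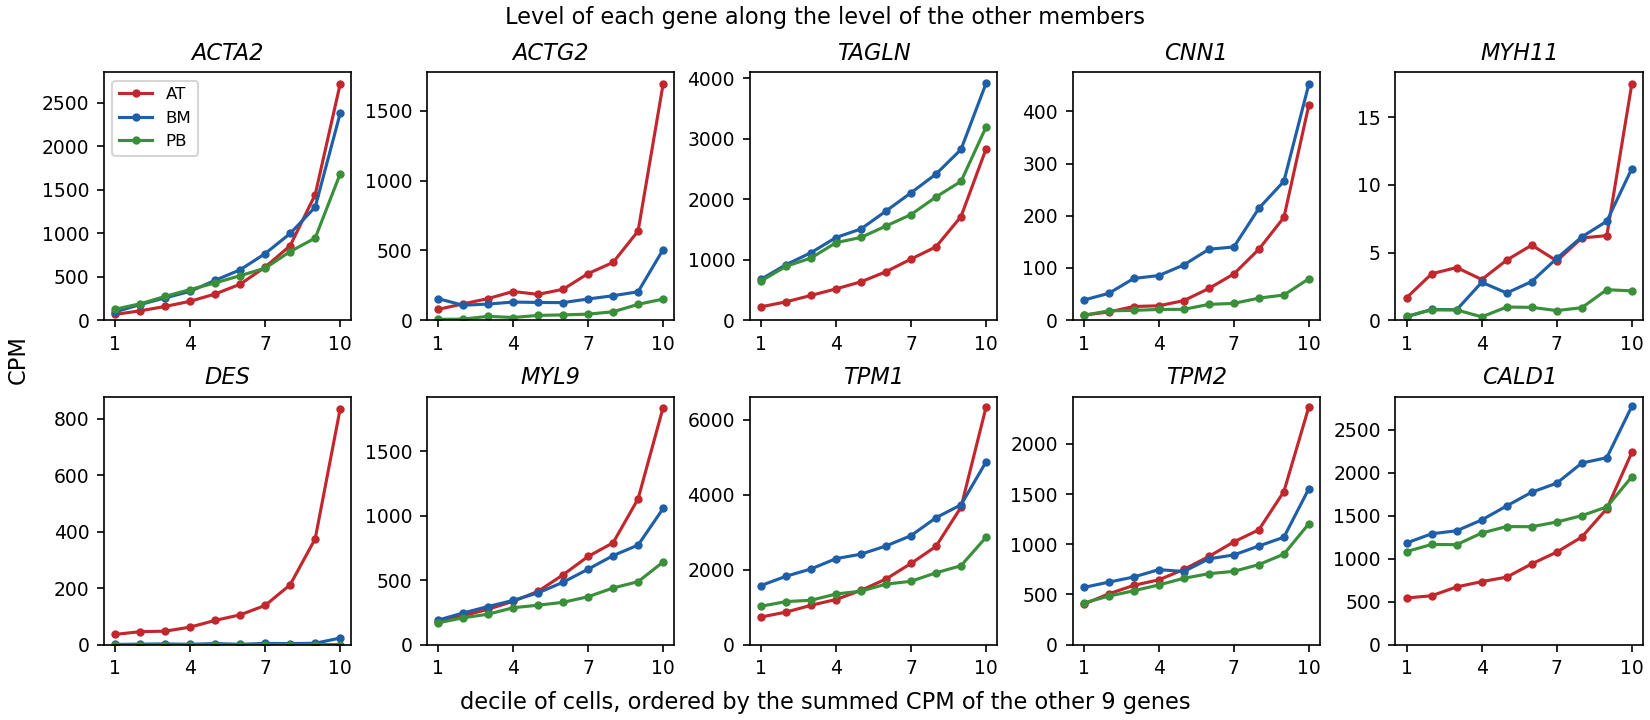
CPM of each gene in deciles of cells ordered by the summed CPM of the other 9 genes, in AT-, BM- and PB-derived MSCs, with linear axes that start at 0 and differ between genes. *ACTA2*, *ACTG2*, *CNN1* and *DES* climb steeply in the last deciles of AT, to 2716, 1693, 413 and 837 CPM, while *ACTG2* in BM reaches 506 CPM.

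Cells were also split by whether they held a UMI of 1 gene. After thinning, cells with *ACTG2* numbered 1864 in AT, 1016 in BM and 321 in PB. *CNN1* was 3.46-fold higher in those cells than in the rest in AT, 2.28-fold in BM and 3.05-fold in PB, and *ACTA2* 2.94-, 1.66- and 2.04-fold. *CALD1* was 1.65-fold higher in AT but only 1.11-fold in BM and 1.01-fold in PB. Cells with *ACTG2* were deeper before thinning, with medians of 7627 against 7142 UMIs in AT, 8040 against 6666 in BM and 9124 against 7686 in PB. The 1277 AT-derived MSCs with *DES* held 2.77-fold more *ACTG2*, 2.89-fold more *CNN1* and 2.15-fold more *ACTA2* than the AT-derived MSCs without it. In BM only 48 cells held *DES*. *ACTG2* was 3.95-fold, *TPM1* 1.72-fold, *ACTA2* 1.47-fold, *TPM2* 1.44-fold and *CNN1* 1.40-fold as high in those cells as in the rest. *MYL9* was 1.06-fold, *CALD1* 1.01-fold and *TAGLN* 0.871-fold. *MYH11* had 0 UMIs in those cells and 53 in the other 5532, too few to compare.

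Vascular and visceral actin overlapped in part. At 2500 UMIs, 24.1%, 12.7% and 5.10% of the cells of AT, BM and PB held both *ACTA2* and *ACTG2*. Cells with neither made up 36.1%, 33.7% and 39.2%. Cells with *ACTG2* and no *ACTA2* made up 10.4%, 5.47% and 0.940%.

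The next comparison was between phases of the cell cycle, where *ACTG2* and *CNN1* were higher in S and G2M than in G1 in BM and PB, while in AT the highest such log2 difference was 0.06 (*ACTG2* in G2M). Phases were called from lists of S and G2M genes that hold none of the 10. *ACTG2* in BM was 120 CPM in 4251 cells called G1, 368 in 533 called S and 328 in 796 called G2M. In PB it was 26.6 CPM in 4067 G1 cells, 107 in 904 S cells and 185 in 347 G2M cells. In AT it was 420 CPM in 3459 G1 cells, 420 in 1468 S cells and 439 in 476 G2M cells. The share of cells with *ACTG2* at 2500 UMIs moved likewise. In BM it was 13.6% in G1, 36.4% in S and 30.5% in G2M, and in PB it was 4.11%, 10.1% and 18.2%. In AT the shares were 34.8%, 34.3% and 32.8%. Cells called S or G2M were deeper than G1 cells in BM (8788 and 8328 against 6533 UMIs) and PB (7907 and 9020 against 7670).

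*CNN1* in PB went from 24.8 CPM in G1 to 46.7 in S and 84.3 in G2M, and in BM from 147 to 220 and 188. In AT it was 115, 87.7 and 101 CPM. Past a log2 difference of 1 over G1 in G2M were *ACTG2* (1.45) and *DES* (1.17) in BM, against 6.35% of non-members, and *ACTG2* (2.76) and *CNN1* (1.73) in PB, against 4.77%. In S, only *ACTG2* was past it, in BM (1.61) and PB (1.97), against 6.77% and 1.39% of non-members. In AT 0 members were past it in S or G2M, against 1.21% and 4.02%. Below G1 by more than 1 in G2M were *MYH11* (-1.22) and *DES* (-1.08) in AT, against 0.839% of non-members, and *MYH11* (-1.07) in BM, against 3.36%. None was below G1 by more than 1 in S in BM or PB, against 2.64% and 0.0316%, or in G2M in PB, against 1.77%. The shares are of non-members with at least 10 CPM in the source, a level that *MYH11* in AT and BM and *DES* in BM did not reach. The *MYH11* values rest on 8 and 12 UMIs in G2M cells, and the *DES* value in BM on 67. *CALD1* was lower in S and in G2M than in G1 in every source. Called S and G2M were 27.2% and 8.81% of the cells in AT, 9.55% and 14.3% in BM and 17.0% and 6.53% in PB. The 9 proliferation genes described below summed to 348, 690 and 317 CPM. The shares called G2M follow the same order of sources as these levels, whereas the shares called S do not. No cycling is read from the calls, and whether a call marks the same state in each source, or is touched by leaked RNA, was not tested.

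**Figure D5:**
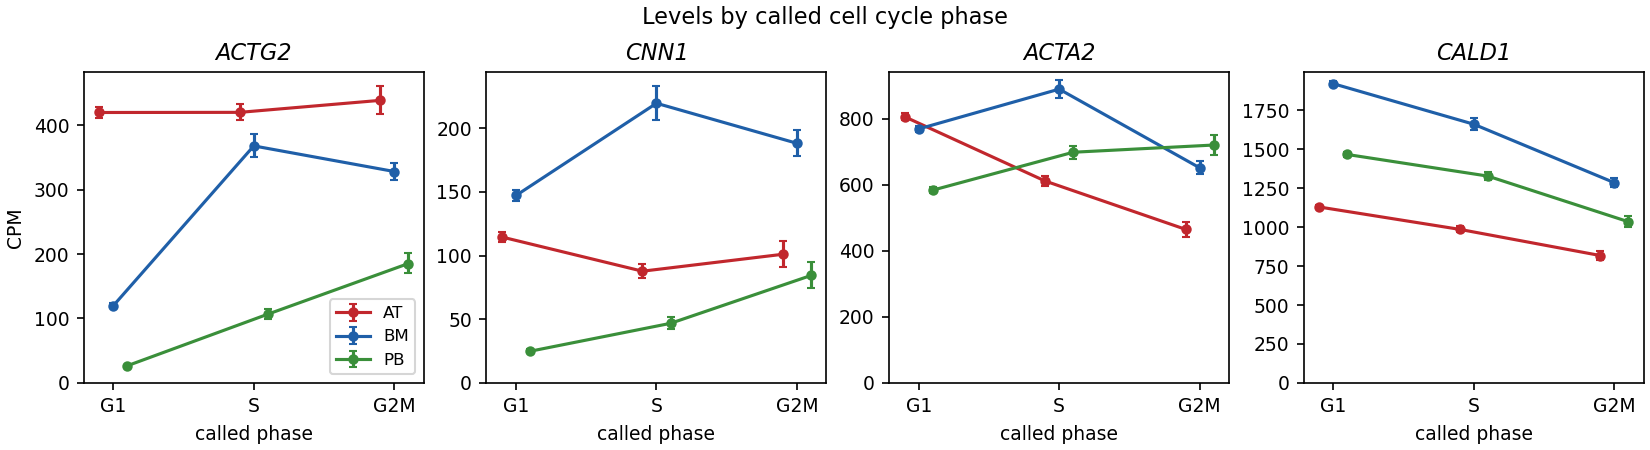
CPM of *ACTG2*, *CNN1*, *ACTA2* and *CALD1* in cells called G1, S and G2M in AT-, BM- and PB-derived MSCs, with exact 95% Poisson intervals as bars. *ACTG2* is near 420 CPM in G1 and S of AT but goes from 120 to 368 CPM in BM and from 26.6 to 107 CPM in PB, and *CALD1* is lower in G2M than in G1 in all 3.

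Other genes of smooth muscle and stress fibres, a list of 34, were all found. Past a log2 difference of 1 were 1 in AT over BM and 5 in BM over AT, 5 in AT over PB and 3 in PB over AT, and 7 in BM over PB and 1 in PB over BM. Over the 16457 genes, 2.06% were past it in AT over BM and 6.33% in BM over AT, 3.53% in AT over PB and 4.43% in PB over AT, and 4.53% in BM over PB and 1.77% in PB over BM. Of the 4 most abundant, *MYL6*, the essential myosin light chain, was 1127, 2065 and 1757 CPM in AT, BM and PB, and *HSPB1*, a small heat shock protein, 815, 944 and 699 CPM. *PDLIM7*, which binds stress fibres, was 495, 442 and 285 CPM. *VCL*, vinculin of the focal adhesions, was 254, 646 and 304 CPM and so past 1 in BM against both other sources, as were *KCNMB1*, a subunit of the calcium-activated potassium channel of smooth muscle (1.18, 29.4 and 0.312 CPM), and *FHL2* (40.9, 275 and 122 CPM). *MYLK*, the kinase that phosphorylates the myosin light chain, was past 1 below both other sources in PB (12.4, 22.7 and 1.44 CPM), as were *PDLIM3* (17.1, 25.6 and 1.20 CPM) and *SYNPO2* (6.28, 4.52 and 0.721 CPM). *FHL1* (38.7, 154 and 152 CPM) and *SORBS2* (0.400, 18.6 and 9.11 CPM) were lowest in AT, and *HSPB7* (2.80, 0.199 and 0.601 CPM) was highest there. *PLN*, phospholamban, was at 0 in all sources.

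Along the deciles, 15 of the 23 such genes with at least 10 CPM were more than 2-fold higher in the highest AT decile, 12 of 26 in BM and 9 of 21 in PB, and 0 were as much lower. The background shares of higher genes were those given above, 2.86%, 2.26% and 2.51%, and those of lower genes were 3.02%, 2.41% and 1.45%. *MYLK* went from 2.77 to 61.6 CPM in AT and from 5.14 to 65.4 CPM in BM. *LMOD1*, leiomodin, which nucleates actin filaments in smooth muscle, went from 10.5 to 100.7 CPM in AT, while in BM it was 14.1 and 141 CPM at the extremes and in PB 15.6 and 75.9 CPM. These 2 were picked for mention after their values were seen.

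Non-muscle relatives of the members were followed too. Of 13 listed, 12 were found under those symbols, and 4 of 10 with at least 10 CPM were more than 2-fold higher in the highest AT decile, 5 of 11 in BM and 3 of 10 in PB, beside the same 2.86%, 2.26% and 2.51% of non-members. *ACTB*, cytoplasmic β-actin, was 1591, 2947 and 1563 CPM in AT, BM and PB, and *ACTG1*, cytoplasmic γ-actin, 2960, 4661 and 4225 CPM. *VIM*, vimentin, the intermediate filament of mesenchymal cells, was 8751, 11825 and 16594 CPM, the reverse of the order of *DES*. In AT it went from 10027 CPM in the lowest decile to 6495 in the highest. *MYL12A*, the non-muscle regulatory light chain, was 460, 967 and 534 CPM. *TAGLN3* was past 1 in BM against both other sources (6.15, 101 and 3.03 CPM). Of the 12, 0 were past 1 in AT over BM and 3 in BM over AT. In AT over PB 1 was past it and in PB over AT 0, and in BM over PB 1 and in PB over BM 0. The shares of the 16457 genes are those given above.

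Contractile genes are driven by SRF and its cofactors. *MYOCD*, myocardin, such a cofactor, was 1.28 CPM in AT, 0.547 in BM and 0.433 in PB, and *SRF*, serum response factor, 7.43, 15.3 and 8.10 CPM. Of 13 listed regulators, 0 were past 1 in AT over either other source or in BM over PB, 1 was past it in BM over AT, 1 in PB over AT and 2 in PB over BM, beside the shares of the 16457 genes given above. *MEF2C*, a muscle transcription factor, was past 1 in PB against both (13.7, 28.3 and 110 CPM), and was 163 CPM in the lowest and 70.5 in the highest PB decile. Others listed were *KLF4*, a repressor of contractile genes (92.2, 51.6 and 115 CPM), *YAP1* (30.9, 69.1 and 46.7 CPM) and *MRTFA*, a cofactor of SRF that responds to actin (21.7, 21.4 and 11.2 CPM). In AT 1 of the 4 regulators with at least 10 CPM was more than 2-fold higher in the highest decile, beside 2.86% of non-members. That was *MRTFA*, with 11.9 CPM in the lowest and 32.9 in the highest, while *KLF4* was 109 and 62.1 CPM, *MEF2C* 17.2 and 9.89 CPM and *YAP1* 29.7 and 30.6 CPM. The median log2 difference of the 4 was -0.35. In BM 2 of 7 were more than 2-fold higher, *SRF* (8.12 and 21.8 CPM) and *TEAD3* (7.31 and 18.0 CPM), beside 2.26%, and in PB 0 of 6, beside 2.51%. *MEF2C* was the only one more than 2-fold lower in BM (34.9 and 12.4 CPM) and in PB, beside 2.41% and 1.45% of non-members. In AT 0 were as much lower, beside 3.02%.

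TGF-β, a growth factor that raises contractile genes in fibroblasts, was followed through 20 genes, all found. Past 1 were 2 in AT over BM and 7 in BM over AT, 3 in AT over PB and 7 in PB over AT, and 2 in BM over PB and 4 in PB over BM. The shares of the 16457 genes were again 2.06%, 6.33%, 3.53%, 4.43%, 4.53% and 1.77%, in that order. The ligands *TGFB1* (19.7, 34.0 and 73.7 CPM) and *TGFB3* (21.2, 49.5 and 115 CPM) were past 1 in PB against both other sources, the reverse of *ACTG2* and *DES*. Of the responsive genes, *THBS1*, thrombospondin, was 520, 386 and 90.0 CPM and past 1 below both in PB. *COL1A1* (6259, 2700 and 6036 CPM) and *FN1* (1103, 545 and 1276 CPM) were lowest in BM, and *CTGF* (11.6, 199 and 42.9 CPM) was highest there. *TGFB2*, *SMAD7* and *INHBA* were past 1 below both in AT. Along the deciles, 4 of 14 of these genes were more than 2-fold higher in AT, 5 of 17 in BM and 5 of 18 in PB, *THBS1* and *LTBP1* in all 3, beside 2.86%, 2.26% and 2.51% of non-members. *TGFBR2*, a TGF-β receptor, was the only one of them more than 2-fold lower, in AT (40.8 and 19.5 CPM), beside 3.02% of non-members. In BM and PB 0 were as much lower, beside 2.41% and 1.45%.

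Among non-members, listed genes included, those whose level followed the members most closely were found by r with the mean standardised log(CPM + 1) of the 10, over genes found in at least 25% of cells. In AT they included *THBS1* (0.486), the unnamed ENSECAG00000030271 (0.435), *NEXN*, nexilin of actin filaments (0.421), ENSECAG00000022273 (0.395), *ACTG1* (0.393), *DSTN*, destrin, which severs actin filaments (0.367), and *MFAP4* (0.358). In BM they included ENSECAG00000009190 (0.409), *THBS1* (0.394), *ACTB* (0.358), *VCL* (0.354), ENSECAG00000030271 (0.349), *GLIPR1* (0.344) and *LMOD1* (0.330). In PB they were *PFN1*, profilin (0.360), *CTHRC1* (0.351), *MYL6* (0.348), *ANXA1* (0.300), ENSECAG00000009190 (0.298), *GLIPR1* (0.288), *CFL1*, cofilin (0.285), and *PDLIM7* (0.282). The 95th percentile over all such genes was 0.161, 0.157 and 0.174.

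Markers of neighbouring cell types were given the same account. Of 10 pericyte markers 9 were found, and they summed to 300.0 CPM in AT, 271 in BM and 69.5 in PB. *NDUFA4L2* (249, 174 and 8.0 CPM) made up most of the sum in AT and BM, and *PDGFRB* and *CSPG4* did in PB. Of the 2 with at least 10 CPM in AT, *NDUFA4L2* was 149.5 CPM in the lowest and 448 in the highest decile and *PDGFRB* 49.9 and 35.6 CPM, so 1 of 2 was more than 2-fold higher, beside 2.86% of non-members. In BM 1 of 3 was as much higher (*NDUFA4L2*), beside 2.26%, and in PB 0 of 2, beside 2.51%. *CSPG4* was more than 2-fold lower in PB (29.7 and 13.4 CPM), beside 1.45% of non-members. The defining pericyte gene *RGS5* was 0.475, 0.522 and 0.745 CPM, and *ABCC9* and *KCNJ8* were at 0. *MCAM* (3.50, 17.7 and 0.577 CPM) was past 1 in BM and *CSPG4* (1.98, 7.38 and 21.6 CPM) in PB against both other sources. *PDGFRB* was 44.7, 69.0 and 37.9 CPM.

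*DES* is also a gene of skeletal and cardiac muscle. The 15 markers of those tissues summed to 23.9 CPM in AT, 29.4 in BM and 7.88 in PB, most of it *TNNT1* (15.5, 26.1 and 5.67 CPM). The myogenic factors *MYOD1* and *MYOG* had 1 UMI each in AT (0.0250 CPM) and 0 in BM and PB, which does not separate the sources. *PAX7* and *MB* were at 0 in all sources. *ACTA1*, skeletal α-actin, was 3.90, 0.273 and 0.0481 CPM, and in AT it was at 0 in the lowest and 30.1 CPM in the highest decile. Its 156 UMIs in AT came from 0.685% of the cells. *TNNT1*, the only one of the 15 with at least 10 CPM in AT, was 16.1 and 15.4 CPM there, so 0 of 1 was more than 2-fold higher, beside 2.86% of non-members. *TNNC1* was 3.61 and 1.84 CPM and *MYH7* was at 0 and 1.38 CPM.

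Of 10 proliferation genes listed, 9 were found. Between sources, 8 of the 9 were past 1 in BM over PB and 4 in BM over AT, beside 4.87% and 7.19% of the 6550 genes, and 0 in the other directions. Along the deciles, 7 were more than 2-fold lower in the highest AT decile, where 3.02% of non-members were as much lower. *TOP2A*, a topoisomerase of dividing cells, went from 61.6 to 10.8 CPM. In BM 3 were lower, against 2.41%. In PB 2 were higher and 1 was lower, against 2.51% and 1.45%. Their part in the order of the members was not tested beyond the counts in cells called G1 given above.

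The general MSC markers were the last group compared. *THY1* was 665, 531 and 90.5 CPM in AT, BM and PB and past 1 below both in PB, *CD44* 691, 285 and 522 CPM, *B2M* 1129, 1151 and 1781 CPM and *ITGB1* 197, 313 and 204 CPM. Of the 5 with at least 10 CPM, 1 was more than 2-fold higher in the highest AT decile (*ITGB1*), and 0 were in BM or PB, beside 2.86%, 2.26% and 2.51% of non-members.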

How the data were processed

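Libraries of 3′ ends were made with 10x Genomics version 2 chemistry. CellRanger, run by the authors, placed reads on the EquCab3.0 assembly by barcode, and ESAT then gave UMI totals for genes. What they deposited is raw UMI counts, one table per library, with no scaling. In AT, BM and PB, 11757, 6455 and 6180 barcodes were listed. Kept cells held 39980656, 40239295 and 41622445 UMIs, of which the members made up 0.744%, 0.902% and 0.648%. Tables give symbols, chromosomes and strands.

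Members and lists were chosen with earlier results of these data known. All members, the most abundant genes of each list (4), those past 1 against both other sources, and the 8 genes per source that correlated best with the members were named, besides extremes and textbook regulators, which were named after their values were seen. No test was run, because each source had 1 library.

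Poisson and Clopper-Pearson intervals (95%) were computed with SciPy 1.17.1, and cells were thinned without replacement. Phases were called with Scanpy 1.11.5 and the gene lists of Seurat 5.3.0, of which 40 of 43 S and 50 of 54 G2M genes were found. TMM factors came from edgeR 4.0.16 in R 4.3.3 and were 0.928, 1.13 and 0.957. The methods name a multiplet caller that was not run here, and whether its calls were removed from the tables is not known. Instead, an alternative left out the 5% of cells that Scrublet scored highest. Other alternatives were other limits on UMIs and mitochondrial UMIs, a pseudocount of 25 CPM, means of single cells, G1 cells, shared barcodes, Spearman's rho, log(CPM + 100) and a partial correlation given depth. The computations were tested on simulated data. *MKI67* and *TPM4* were not analysed here. Values of 1 gene named by these rules are not reported here.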

Additional observations from a re-analysis of the deposited data

Results flagged for a closer look

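*ACTA2* differed between called phases in opposite directions in AT and PB. In AT its log2 difference was -0.40 for S minus G1 and -0.79 for G2M minus G1, and in PB it was 0.26 and 0.30. *CNN1* was lower in S than in G1 in AT (-0.38) and higher in BM (0.57) and PB (0.89). The opposite signs drew attention to these values, and the differences between sources were not tested.

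Barcodes under 2500 UMIs, which entered no comparison of the report and only the alternative from 500 UMIs, held the 10 genes at a summed level of 6632 CPM in AT, 7027 in BM and 5899 in PB. In AT, the 5716 of these barcodes that another table also holds had *DES* at 4.06 and *ACTG2* at 78.2 CPM, and the 439 that no other table holds had 201.5 and 205 CPM. The kept AT-derived MSCs whose barcodes no other table holds had *DES* at 203 and *ACTG2* at 422 CPM, and kept PB-derived MSCs 0.288 and 52.4 CPM. *TAGLN*, *TPM1*, *CALD1* and *MYL9* were 1746, 1746, 1398 and 370 CPM in the 5716. They were 1637, 1665, 1411 and 355 CPM in kept PB cells and 994, 2257, 1060 and 661 CPM in those kept AT cells. All 10 genes in the 5716 lay nearer to the kept PB levels than to those of kept AT cells. From which cells these barcodes come was not tested.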

How the results depend on the processing

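Of 310 recomputed differences of single members, 307 kept their sign, and the 3 that did not concern *ACTA2* (AT minus BM, 0.07 in G1 cells and 0.20 with TMM) and *TAGLN* (BM minus PB, -0.01 with TMM). A pseudocount of 25 CPM, which shrinks low genes, left 2 members past 1 in BM over PB, without *MYH11* (0.16) and *DES* (0.25), and 3 in AT over PB, without *MYH11* (0.24). It gave 2.93 and 3.18 for *DES* in AT over BM and over PB, in place of 5.08 and 7.31. In G1 cells 5 were past 1 in AT over PB, with *MYL9* (1.11), and *ACTG2* was 1.80 in AT over BM and 3.93 in AT over PB, in place of 1.19 and 2.99. The median r of member pairs in AT was 0.220 after thinning, 0.233 with barcodes from 500 UMIs, 0.331 in G1 cells, 0.401 as Spearman's rho and 0.419 with log(CPM + 100). In BM it was 0.0827 after thinning, 0.226 as Spearman's rho, 0.219 with log(CPM + 100) and 0.129 as a partial correlation given depth, and in PB 0.0412 after thinning and 0.0840 as the partial correlation. Thinning lowers counts by construction, and for the other settings the cause was not tested. The limit of 500 UMIs took AT from 5403 to 10493 barcodes, BM from 5580 to 5888 and PB from 5318 to 5632. Most AT barcodes under 2500 UMIs, 5716 of 6155, also stand in another table, and their levels lay nearer to PB, as given above. The setting from 500 UMIs is therefore not a check on AT-derived MSCs alone. The alternatives on deciles and spread, and the one without barcodes kept in 2 libraries, were chosen after seeing the data. Leaving out kept barcodes that another table also holds left 0 PB cells, so PB has no value there. No paired analysis was possible because each source has 1 library. The PB values of *DES* and *MYH11* rest on few UMIs, 12 and 43.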
